A study of Mus musculus with 20 samples.

Results

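Injured kidney tubule cells turn on a recognisable set of genes, and 8 of these tubule injury markers, Havcr1, Vcam1, Spp1, Clu, Anxa2, Anxa3, Cp and Icam1, were followed among the 55471 genes counted in whole mouse kidneys. The 8 were taken by gene symbol, with earlier results of these data known, and all 8 passed the filter on low counts in every comparison. Damaged proximal tubule cells lose transport functions, clear dead neighbours, attract leukocytes and secrete proteins into urine and interstitium before they either repair or persist in an injured state. Havcr1 encodes KIM-1, a phosphatidylserine receptor with which tubule cells engulf apoptotic debris. Vcam1 and Icam1 encode adhesion molecules that bind leukocyte integrins and are also made by activated endothelium. Spp1 and Clu encode the secreted proteins osteopontin and clusterin. Cp encodes ceruloplasmin, a copper ferroxidase, and Anxa2 and Anxa3 encode annexins, which bind membrane phospholipids in a calcium-dependent way.

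RNA was sequenced from whole kidneys of 20 female mice, labelled as 2 months old, with 1 library per mouse. In the i-TERTci experiment, on a mixed background, 3 i-TERTci mice carrying the actin-rtTA+ and tetOp-TERTci+ transgenes were compared with 4 actin-rtTA+ mice without the second transgene. Both groups drank doxycycline for 15 days, which switched on catalytically inactive telomerase (TERTci) throughout the body of i-TERTci mice, and kidneys were taken 8 days after it was withdrawn. In the ADR experiment, on a Balb/c background, TERT WT/WT mice (4 saline, 3 ADR) and TERT KO/KO mice (3 saline, 3 ADR) received 1 intravenous injection of saline or of adriamycin (ADR, doxorubicin, an anthracycline toxic to podocytes) at 12 mg/kg, and kidneys were taken 18 days later. The TERT KO/KO mice were of the first generation without TERT, the knockout was constitutive, and the TERT WT/WT mice were littermates. Kidney cells were not separated, so fewer cells of a type and less RNA per cell cannot be told apart in these data.

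The libraries held 39323498 to 48399322 counts. The library of TERT KO/KO ADR replicate 2, differed from the rest: albumin (Alb) took 26.1% of its counts, and its mean log2(CPM + 0.1), where CPM is the count scaled to library size, was 1.87 over 12 proximal tubule markers, against 7.44 or more in the other 19 libraries. Over 12 hepatocyte and Kupffer cell markers it was 11.48 there and at most 1.44 elsewhere. That library was left out of group means and fits, so TERT KO/KO ADR means are of 2 mice. Tert itself had 51 to 210 counts in the other 5 TERT KO/KO libraries and 122 to 379 in the TERT WT/WT libraries, counted over the whole gene. In i-TERTci replicates 1, 2 and 3 it had 1070, 1086 and 230 counts, against 87 to 164 in actin-rtTA+ mice.

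In uninjured kidneys the 8 genes differed widely in level. Per kilobase of exon, the mean over the 4 TERT WT/WT saline kidneys was 714 CPM per kilobase for Spp1, 86.4 for Clu and 75.0 for Havcr1. It was 14.5 for Anxa2, 9.56 for Cp, 5.98 for Icam1, 3.05 for Anxa3 and 1.49 for Vcam1. Spp1 thus led the set by a wide margin and Vcam1 closed it. The order was the same in the actin-rtTA+ and TERT KO/KO saline groups, with means of 771 and 748 CPM per kilobase for Spp1 and 1.64 and 1.31 for Vcam1. In TERT WT/WT saline kidneys only the neighbours Clu and Havcr1 overlapped (80.0 to 92.6 and 53.5 to 104 CPM per kilobase). All values that follow are CPM scaled with TMM factors, which adjust each library for a few abundant genes, and are not divided by length unless stated. Rose and fell are used of genes with an adjusted p under 0.05 over all genes tested in edgeR's quasi-likelihood F test.

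**Figure D1:**
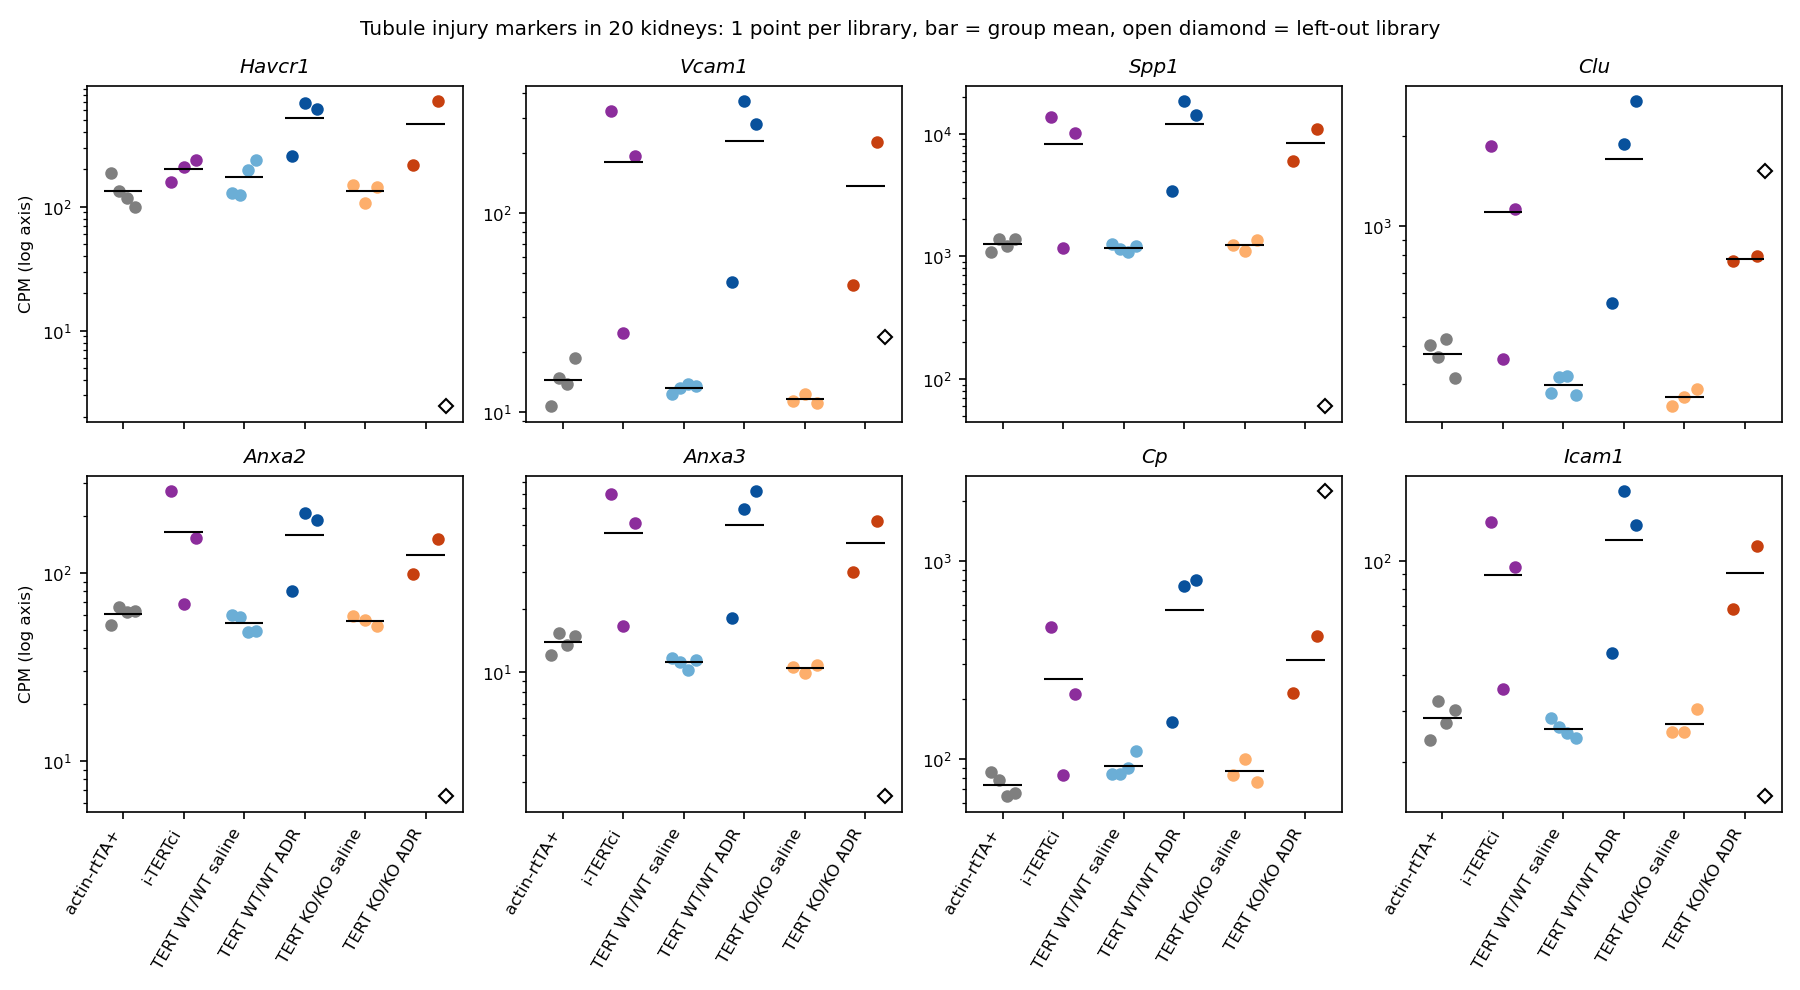
CPM of the 8 genes in each of the 20 kidneys, on a log axis, by group. Each point is 1 library, bars are group means, and the open diamond is the library left out (TERT KO/KO ADR replicate 2, CPM without a TMM factor). Within a control group the highest kidney was at most 1.94-fold above the lowest (Havcr1), and in each i-TERTci or ADR group 1 mouse lay nearest to the controls for most genes.

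The first question was what ADR left behind in kidneys with intact TERT at day 18. All 8 genes rose in TERT WT/WT mice, and the 3 ADR libraries lay above all 4 saline libraries for each of them. Over all 19023 genes tested, 15.2% rose and 17.3% lay above the saline libraries without overlap. The median log2 difference was 2.34 over the 8 genes and 0.01 over all genes tested. Vcam1 rose most (4.12 ± 0.63 log2 units, SE) and Anxa2 least (1.57 ± 0.26). With TERT KO/KO ADR replicate 2 kept in the fit, only Vcam1, Clu, Anxa3 and Icam1 were called.

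Havcr1 (chromosome 11, 46735080 to 46779578, plus strand; all gene positions are of mm10) is made by injured proximal tubule cells and shed into urine. Its TERT WT/WT saline kidneys had 130, 124, 198 and 240 CPM in replicates 1 to 4, a wider relative spread than the other 7 genes showed. The ADR kidneys had 257, 693 and 616 CPM. Replicate 1 thus lay just above the highest saline kidney, and the other two lay far above it. The difference was 1.59 ± 0.41 log2 units (adjusted p = 0.0159, edgeR). It was not called without TERT WT/WT ADR replicate 2 (adjusted p = 0.0755) or replicate 3 (adjusted p = 0.0531), nor with no filter on low counts (adjusted p = 0.0655).

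Vcam1 (chromosome 3, 116109949 to 116129688, minus strand) encodes the endothelial and epithelial partner of an integrin on leukocytes, and marks tubule cells that have failed to repair. It stood low in saline kidneys, at 12.4, 13.1, 13.8 and 13.5 CPM. After ADR it stood at 45.1, 364 and 281 CPM. The groups did not overlap, and the fitted difference was 17.4-fold (95% interval 6.74 to 45.0, adjusted p = 0.00184, edgeR). The ADR mice themselves spanned an 8.08-fold range.

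Icam1 (chromosome 9, 21015985 to 21028817, plus strand) encodes a ligand of leukocyte integrins and is a well-known target of NF-kB. The 4 saline kidneys had 28.4, 26.5, 25.3 and 24.2 CPM, and the ADR kidneys 47.99, 175 and 133 CPM. The lowest ADR kidney was therefore above every saline kidney, and the difference was 2.19 ± 0.33 log2 units (adjusted p = 0.00171, edgeR). Its promoter is shown because it holds several of the inflammatory motifs searched. The window covers 250 bases before a RefSeq start of transcription (GRCm38.p6, chr9:21015690-21015939, plus strand), with 2 NF-kB matches (GGNNNTTCC) and 1 STAT match (TTCNNNGAA) in capitals.

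Icam1: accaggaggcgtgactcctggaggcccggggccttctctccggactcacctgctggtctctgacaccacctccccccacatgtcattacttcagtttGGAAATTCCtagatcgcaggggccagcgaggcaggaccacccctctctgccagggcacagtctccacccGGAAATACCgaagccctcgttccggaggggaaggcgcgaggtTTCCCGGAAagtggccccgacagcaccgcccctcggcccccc

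The NF-kB matches began 153 and 84 bases before the start, the second on the minus strand, and the STAT match began 42 bases before it. Both strands were searched, and a match says only that these letters are present. Of 32851 promoter windows of the same kind, 15.7% held the NF-kB letters and 7.02% the STAT letters. Windows were at hand for 5 of the 8 genes. Those of Spp1 and Havcr1 held none of the motifs, and Cp held 1 AP-1 and 1 NF-kB match in different windows.

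Spp1 (chromosome 5, 104435118 to 104441050, plus strand), the cytokine-like matrix protein osteopontin, was abundant before injury. Saline kidneys had 1251, 1154, 1089 and 1211 CPM, and ADR kidneys 3430, 18356 and 14254 CPM. Each ADR kidney was at least 2.92-fold above the saline mean. In TERT WT/WT ADR replicate 2 its transcripts made up 1.97% of all counts, and in replicate 3 it was the gene with the 4th highest count, whereas it ranked 47 to 68 in saline kidneys. The fitted difference was 10.2-fold (95% interval 5.34 to 19.5, adjusted p = 9.30e-04, edgeR).

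Clu (chromosome 14, 65968483 to 65981547, plus strand), an extracellular chaperone, had 280, 315, 318 and 275 CPM in saline kidneys and 557, 1878 and 2605 CPM after ADR. The groups did not overlap and Clu rose by 2.50 ± 0.36 log2 units (adjusted p = 0.00141, edgeR). Cp (chromosome 3, 19957054 to 20009145, plus strand), which oxidises iron so that it can be loaded onto transferrin, had 83.3, 83.4, 89.8 and 109 CPM with saline and 153, 746 and 794 CPM with ADR. It rose by 2.63 ± 0.43 log2 units (adjusted p = 0.00244, edgeR). The gene Hps3 overlaps Cp on the opposite strand and had at most 1280 counts in a library, against 2769 or more for Cp, and it is not known whether counting used strand.

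Of the annexins, Anxa2 (chromosome 9, 69453620 to 69491795, plus strand), which links membranes to actin as a complex with S100a10, had 59.9, 58.7, 48.8 and 48.9 CPM in saline kidneys and 80.5, 207 and 192 CPM in ADR kidneys. Anxa3 (chromosome 5, 96793339 to 96845966, plus strand) had 11.7, 11.2, 10.2 and 11.4 CPM with saline and 18.0, 59.6 and 72.6 CPM with ADR. For both genes the lowest ADR kidney was again replicate 1, above every saline kidney. Anxa2 rose by 1.57 ± 0.26 (adjusted p = 0.00233) and Anxa3 by 2.17 ± 0.35 log2 units (adjusted p = 0.00232, edgeR for both). The Anxa2 promoter is shown because it holds the AP-1 letters TGANTCA, in capitals, which 6.75% of the windows held. The stretch is the 187 bases before the gene's annotated start (GRCm38.p6, chr9:69453433-69453619, plus strand).

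Anxa2: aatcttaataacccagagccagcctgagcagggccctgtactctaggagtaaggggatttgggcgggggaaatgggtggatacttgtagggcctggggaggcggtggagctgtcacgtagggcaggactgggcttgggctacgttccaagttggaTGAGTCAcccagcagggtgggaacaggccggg

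The same comparison was then made in mice without TERT. Vcam1, Spp1, Anxa2, Anxa3 and Icam1 rose after ADR in TERT KO/KO kidneys, 5 of the 8 genes, where 3.83% of all genes tested rose. For all 8 genes both ADR kidneys lay above the 3 saline kidneys, as did 21.3% of all genes. Havcr1, Clu and Cp just missed the threshold, with adjusted p of 0.0535, 0.0521 and 0.0528 (edgeR). The median log2 difference was 1.83 over the 8 genes and 0.01 over all genes.

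Among the receptors and adhesion molecules, Vcam1 went from 11.3, 12.3 and 11.2 CPM with saline to 43.6 and 229 CPM with ADR (3.55 ± 0.72 log2 units, adjusted p = 0.0203, edgeR). Icam1 went from 25.5, 25.4 and 30.6 to 68.3 and 113 CPM (1.74 ± 0.38, adjusted p = 0.0266). Havcr1 had 150, 107 and 144 CPM with saline and 218 and 711 CPM with ADR, so that the kidneys of replicates 1 and 3 differed by 3.27-fold. The secreted proteins followed. Spp1 stood at 1229, 1099 and 1370 CPM with saline and at 6027 and 10868 CPM with ADR (2.78 ± 0.50, adjusted p = 0.0108). Clu had 252, 270 and 287 CPM with saline and 765 and 797 CPM with ADR, a difference of 1.54 ± 0.42 log2 units in which the 2 ADR kidneys were alike. Cp had 83.0, 99.6 and 76.5 CPM with saline and 214 and 417 CPM with ADR.

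Both annexins rose in these mice. Anxa2 went from 58.8, 56.0 and 52.4 to 98.2 and 151 CPM (1.16 ± 0.31, adjusted p = 0.0484, edgeR), and Anxa3 from 10.5, 9.90 and 10.8 to 29.8 and 52.3 CPM (1.98 ± 0.42, adjusted p = 0.0229). These calls rested on few mice. None of the 8 genes was called without TERT KO/KO ADR replicate 3 or without any 1 of the 3 saline kidneys, and 7 were called without TERT KO/KO ADR replicate 1, when the lone ADR kidney was assumed to vary like the other groups. Other mice of the shared fit mattered too: 8 were called when TERT WT/WT ADR replicate 1 or 3 was left out, and Anxa2 alone lost its call without any 1 TERT WT/WT saline kidney (adjusted p from 0.0687 to 0.0737). With no filter on low counts only Spp1 was called, with TERT KO/KO ADR replicate 2 kept none was, and with DESeq2 all 8 were. Anxa2 was also lost with a filter at a mean of 1 CPM (adjusted p = 0.0502).

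**Figure D2:**
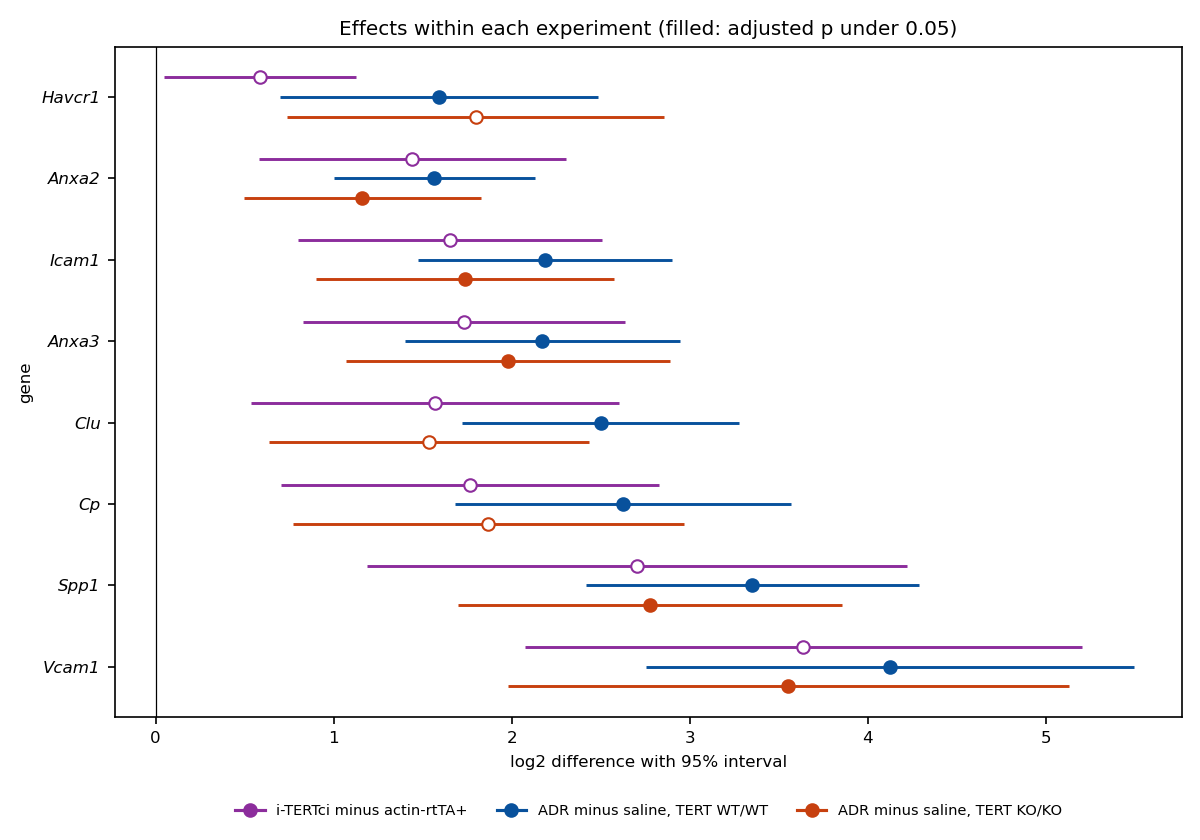
Fitted log2 differences of the 8 genes within each experiment, with 95% intervals, ordered by gene. Filled circles have an adjusted p under 0.05 and open circles do not: all 8 ADR differences in TERT WT/WT mice are filled, 5 in TERT KO/KO mice, and none for i-TERTci.

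Whether TERT itself changed these markers was asked in saline and after ADR. None of the 8 genes passed the test in TERT KO/KO against TERT WT/WT saline kidneys (log2 differences from -0.38 for Havcr1 to 0.07 for Spp1, adjusted p from 0.772 to 0.966, edgeR), and none had an unadjusted p under 0.05, as 8.79% of all genes did. Of all genes, 0.00526% fell and 0% rose. Vcam1 was the 1 gene of the 8 whose TERT KO/KO saline kidneys all lay below the TERT WT/WT ones (11.2 to 12.3 against 12.4 to 13.8 CPM), a pattern that 6.01% of all genes showed. DESeq2 and limma voom also called none of the 8 here.

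After ADR all 8 fitted differences, TERT KO/KO minus TERT WT/WT, were below 0, with a median of -0.45 against 0.00 over all genes tested, and none was called (0.0263% of all genes were lower and 0.0473% higher). Clu differed most. Its TERT KO/KO kidneys, at 765 and 797 CPM, lay between TERT WT/WT ADR replicate 1 at 557 CPM and the other two at 1878 and 2605 CPM. The difference was -1.11 ± 0.44 log2 units (95% interval -2.05 to -0.16, unadjusted p = 0.0254, adjusted p = 0.576, edgeR), and Clu was the only one of the 8 with an unadjusted p under 0.05, as were 7.66% of all genes. Havcr1 differed least, by -0.17 ± 0.49 (95% interval -1.24 to 0.91).

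The effects of ADR in the 2 genotypes were also compared with each other. No member passed the test, and neither did any of the 19023 genes tested (edgeR), although 12.0% had an unadjusted p under 0.05 and DESeq2 and limma voom called 138 and 15 genes, none of them among the 8. The intervals were wide: from -1.19 to 1.60 log2 units for Havcr1, -2.57 to 1.43 for Vcam1 and -2.16 to 0.23 for Clu. These comparisons turned on TERT WT/WT ADR replicate 1. Without it, Clu (-1.52, adjusted p = 0.00120) and Cp (-1.29, adjusted p = 0.0164) were lower in TERT KO/KO than in TERT WT/WT kidneys after ADR, and the difference of the ADR effects was called for Clu (-1.38, adjusted p = 0.0124). Every other library left out gave no call among the 8 in these comparisons. TERT WT/WT ADR replicate 1 was the lowest of its group for 8 of 8 genes. TERT KO/KO ADR replicate 1, also the lowest of its group for 8 of 8, stayed in. The calls without TERT WT/WT ADR replicate 1 thus rest on a low mouse removed from 1 genotype only.

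The i-TERTci experiment asked what a pulse of inactive telomerase left in the kidney 8 days after it ended. No member passed the test, where 0.00564% of the 17745 genes tested, a single gene, did. All 8 were higher on average in i-TERTci mice and had an unadjusted p under 0.05, as did 22.4% of all genes. The median log2 difference was 1.69 over the 8 genes and 0.02 over all genes. With TMM factors, Vcam1, Anxa2, Anxa3 and Icam1 lay above all 4 actin-rtTA+ kidneys in each i-TERTci mouse, as did 9.01% of all genes. Without TMM factors only Vcam1 and Icam1 did so. Replicate 2 was then inside the control range for Anxa2 (59.68 CPM, highest control 62.66) and Anxa3 (14.43 CPM, highest control 14.84).

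The 3 i-TERTci kidneys were unlike each other. Vcam1 had 10.7, 14.8, 13.8 and 18.8 CPM in actin-rtTA+ kidneys and 324, 24.9 and 194 CPM in i-TERTci replicates 1, 2 and 3 (3.64 ± 0.68 log2 units, adjusted p = 0.0758, edgeR). Icam1 had 23.8, 32.6, 27.3 and 30.2 CPM in controls and 137, 35.7 and 95.8 CPM in i-TERTci mice (1.65 ± 0.37, adjusted p = 0.0758). For both adhesion molecules replicate 2 was the lowest i-TERTci kidney and still above every control.

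Among the secreted proteins the same kidney lay within the control range. Spp1 had 1092, 1395, 1219 and 1378 CPM in actin-rtTA+ kidneys and 13606, 1176 and 10091 CPM in i-TERTci kidneys (2.71 ± 0.66, adjusted p = 0.0820, edgeR). Clu had 402, 368, 422 and 312 CPM in controls and 1847, 361 and 1140 CPM in i-TERTci mice (1.57 ± 0.45, adjusted p = 0.103). Cp had 86.0, 78.2, 64.6 and 67.3 CPM in controls and 460, 83.2 and 212 CPM in i-TERTci mice (1.77 ± 0.46, adjusted p = 0.0896). In replicate 1 Spp1 was the gene with the 4th highest count.

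Anxa2 had 53.0, 65.6, 62.0 and 62.6 CPM in controls and 272, 68.2 and 154 CPM in i-TERTci kidneys (1.44 ± 0.38, adjusted p = 0.0891, edgeR). Anxa3 had 12.0, 15.3, 13.4 and 14.8 CPM in controls and 70.4, 16.5 and 51.3 CPM in i-TERTci kidneys (1.73 ± 0.40, adjusted p = 0.0764). Both followed the order of the adhesion molecules, replicate 1 above 3 above 2. Without i-TERTci replicate 2, 7 of the 8 genes were called, all but Havcr1, with log2 differences from 1.80 for Anxa2 to 4.15 for Vcam1. DESeq2 called the same number with all mice, and limma voom called 8.

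Havcr1 did not follow this order. It had 188, 135, 118 and 99.1 CPM in actin-rtTA+ kidneys and 160, 210 and 238 CPM in i-TERTci replicates 1, 2 and 3. The kidney with the highest level of the other 7 genes thus had the lowest Havcr1 of its group, inside the control range. That position rested on the TMM factors. Without them Havcr1 had 197.2, 183.8 and 261.9 CPM in i-TERTci replicates 1, 2 and 3, and 184.9 CPM in the highest actin-rtTA+ kidney. Replicate 1 was then above every control, and replicate 2 was the lowest of its group and inside the control range. With TMM factors, the fold over the control mean in i-TERTci replicate 1 was 1.19 for Havcr1 and 4.48 to 22.3 for the other 7 genes. The fitted difference was 0.59 ± 0.24 log2 units (95% interval 0.05 to 1.13, adjusted p = 0.193, edgeR). After ADR Havcr1 stood at 1.48, 4.00 and 3.56 times the saline mean in TERT WT/WT replicates 1 to 3 and at 1.63 and 5.32 times in TERT KO/KO replicates 1 and 3.

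The change in i-TERTci mice was set against that of ADR in mice with TERT, in 1 fit of 19 libraries. These are 2 strains with different agents and days, which cannot be told apart from the kind of injury. None of the 8 passed the test (0% of 19783 genes were lower and 0.00505% higher) or had an unadjusted p under 0.05, as 7.16% of all genes did. Havcr1 came nearest, at -1.02 ± 0.53 log2 units (95% interval -2.13 to 0.10, unadjusted p = 0.0706, adjusted p = 0.733, edgeR). Anxa2 was closest to 0, at -0.15 ± 0.48 (95% interval -1.15 to 0.86). With limma voom Clu was called at -1.11 (adjusted p = 0.0444), and none was called with DESeq2.

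**Figure D3:**
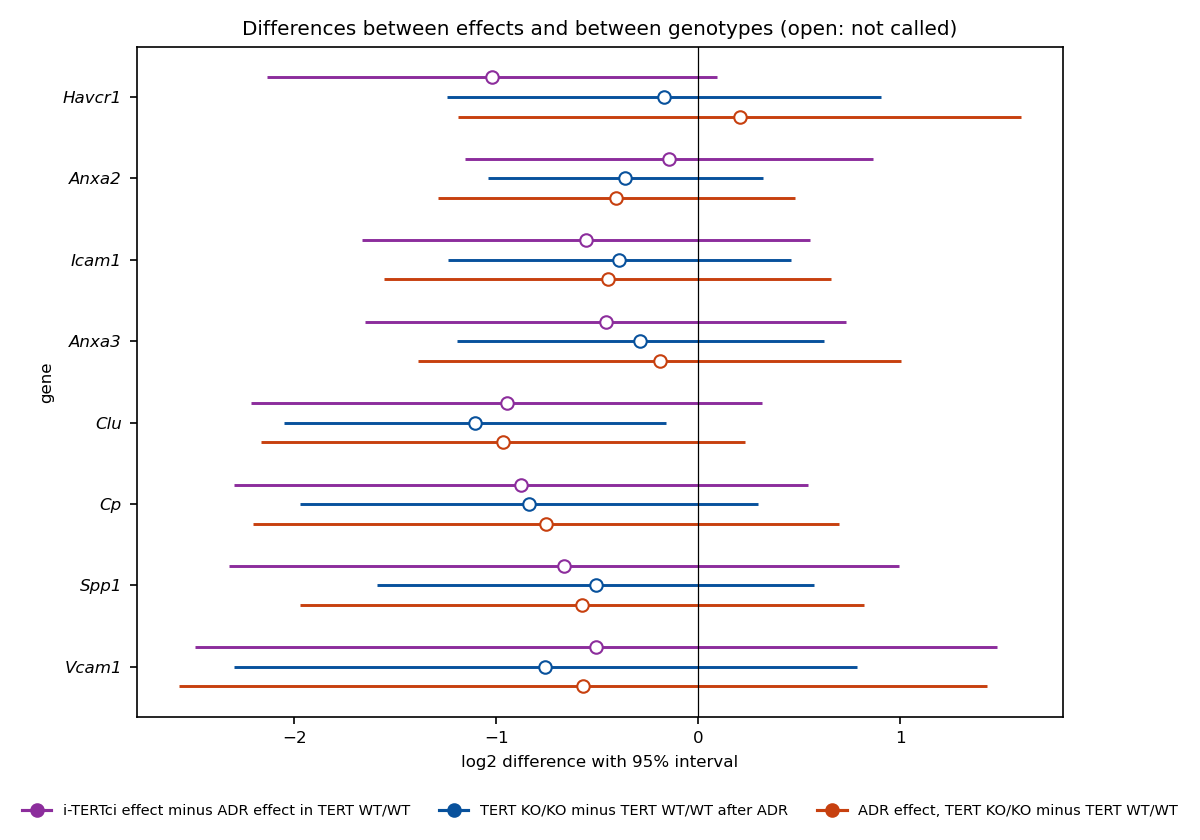
Log2 differences between the i-TERTci and ADR effects, between genotypes after ADR, and between the ADR effects of the 2 genotypes, with 95% intervals. All circles are open, since no adjusted p was under 0.05, and of the 24 intervals only that of Clu between genotypes after ADR leaves out 0.

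Read mouse by mouse, the 8 genes ranked the kidneys of a group in nearly the same way. TERT WT/WT ADR replicate 1 was the lowest ADR kidney for 8 of 8 genes, with a median of 1.76 times the saline mean against 6.52 in replicate 2 and 7.60 in replicate 3. TERT KO/KO ADR replicate 1 was lowest for 8 of 8, at a median of 2.67 times its saline mean against 4.93 in replicate 3. In the i-TERTci group replicate 1 was highest for 7 of 8 genes and replicate 2 lowest for the same 7, with medians over the 8 genes of 4.99, 1.16 and 3.20 times the control mean in replicates 1, 2 and 3. Replicate 2 kept 3 genes (Spp1, Clu and Cp) within the control range. Its Tert count was 1086, against 1070 for replicate 1 and 230 for replicate 3. Kidneys were taken 8 days after doxycycline was withdrawn, and whether such late counts follow the strength of the pulse was not tested.

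**Figure D4:**
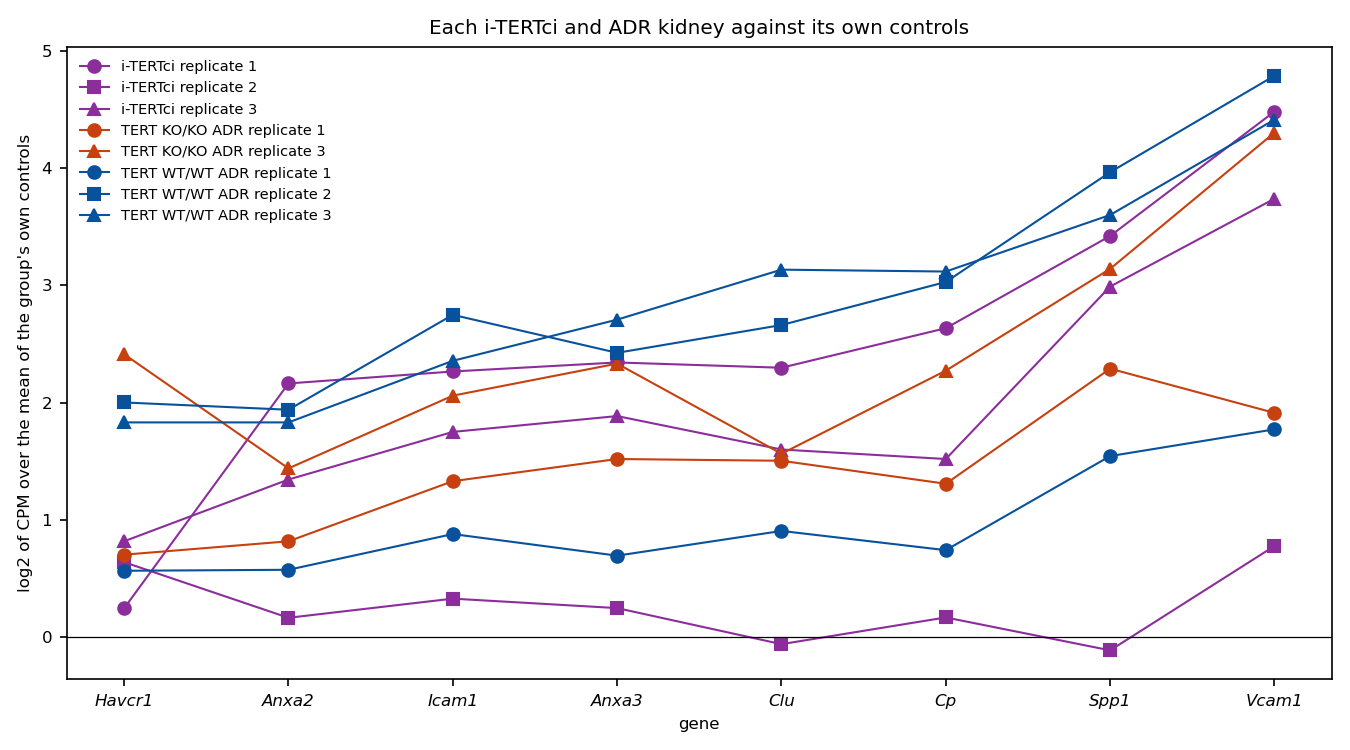
Log2 of each i-TERTci or ADR kidney's CPM over the mean of its own control group, for the 8 genes, with 1 line per mouse. The lines keep much the same order from gene to gene except at Havcr1, where i-TERTci replicate 1 drops to 0.25 while its other 7 values run from 2.16 to 4.48.

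Over the 19 kidneys, the most alike pair of the 8 genes was Anxa3 and Icam1, whose log2 CPM, each centred on the control mean of its experiment, differed by a root mean square of 0.15. The least alike was Havcr1 and Vcam1, at 1.61. These distances are a description of 19 kidneys that share groups and scaling factors. A mean of 1 CPM or more was reached by 14403 genes, the 8 members among them. With the members left out, those nearest to a member were Ccdc122 and Gpc3 for Havcr1 (0.28 and 0.38). They were Adam8 and Aoc1 for Vcam1 (0.41 and 0.42), and Creb5 and Ms4a6c for Spp1 (0.29 and 0.30). Clu lay nearest to Cldn4 and B4galnt1 (0.27 and 0.28), and Anxa2 to Plp2 and Arpc1b (0.09 and 0.14). Slc25a24 was nearest to both Anxa3 and Cp (0.15 and 0.24), followed by Birc3 for Anxa3 (0.19) and Dcdc2a for Cp (0.24). Icam1 lay nearest to Birc3, an NF-kB target that restrains cell death (0.19).

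Other genes known from injured and repairing tubules were taken as a list of 32, of which 31 could be tested in the ADR experiment. This list and those below were chosen with earlier results of these data known. The shares of all genes beside them are therefore a description and no test. In TERT WT/WT mice 26 rose and 2 fell, where 15.2% and 12.0% of all genes did. The median was 1.74 against 0.01 over all genes. Those with the smallest p were S100a6 (2.51 ± 0.26 log2 units), Lcn2, the neutrophil gelatinase-associated lipocalin used as a urinary injury marker (6.65 ± 0.69), the cell cycle inhibitor Cdkn1a (3.21 ± 0.38) and the keratin Krt20 (6.93 ± 0.86), with adjusted p from 6.46e-04 to 9.30e-04 (edgeR). In TERT KO/KO mice 15 rose and none fell, where 3.83% and 1.43% of all genes did, led by Cdkn1a (3.83 ± 0.46). The TERT KO/KO comparison held 2 ADR mice. No gene of this list or of the lists below was called between genotypes after ADR or for the difference of the ADR effects. In i-TERTci mice none passed, although the median was 1.51, and Cdkn1a stood at 2.45 ± 0.45 (adjusted p = 0.0758).

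Receptors and binding partners of the 8 proteins formed a second list. Of 22 tested, ADR raised 10 and lowered 3 in mice with TERT, and raised 3 in TERT KO/KO mice. Of all genes, 15.2% rose and 12.0% fell with TERT, and 3.83% rose in TERT KO/KO mice. The 3 lowered are near the share of all genes, so they are no result about these partners. Itgam, an integrin chain of myeloid cells that binds Icam1, rose by 4.11 ± 0.46 log2 units with TERT and by 2.62 ± 0.52 without it. Cd44, a receptor for osteopontin, rose by 4.78 ± 0.70 and 3.75 ± 0.79, and Itga5, an integrin chain, by 1.17 ± 0.22 and 0.99 ± 0.26. Trem2, a myeloid receptor that binds clusterin, rose by 3.90 ± 0.53 in TERT WT/WT mice. None passed in i-TERTci mice, where Cd44 stood at 4.42 ± 0.82 (adjusted p = 0.0758, edgeR).

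Other annexins and NF-kB genes were tested too. Of all genes, 15.2% rose and 12.0% fell in TERT WT/WT mice, and 3.83% rose in TERT KO/KO mice. Of 9 other annexins, 6 rose in TERT WT/WT mice, led by Anxa1 (1.39 ± 0.17). Another 1 fell there, near the share of all genes, and Anxa1 alone rose in TERT KO/KO mice (1.04 ± 0.21). Of 17 other adhesion molecules and NF-kB feedback genes, 12 rose and none fell in TERT WT/WT mice and 6 rose in TERT KO/KO mice. Relb, an NF-kB subunit, rose by 2.24 ± 0.31 log2 units with TERT and by 1.58 ± 0.36 without it, and Birc3 by 2.01 ± 0.33 and 1.65 ± 0.39. In i-TERTci mice neither list had a call, and Relb stood at 2.32 ± 0.44 (adjusted p = 0.0758, edgeR).

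Among 6 other iron genes tested, ADR raised 1 and lowered 3 in TERT WT/WT mice, where 15.2% of all genes rose and 12.0% fell. Tfrc, the transferrin receptor, fell by 1.21 ± 0.23 log2 units and Hmox1, heme oxygenase 1, rose by 1.74 ± 0.50. In TERT KO/KO mice Slc11a2, an iron importer, fell by 0.80 ± 0.21 and none rose, where 1.43% of all genes fell and 3.83% rose. Hmox1 was also the single gene called in i-TERTci mice (1.65 ± 0.15, adjusted p = 0.0468, edgeR), and no gene was called there with median-ratio factors, with a filter at a mean of 1 CPM, or without actin-rtTA+ replicate 1, 2 or 3. Of 5 relatives of the members tested, Timd2 (2.41 ± 0.30) and Havcr2 (2.23 ± 0.48), both of the Havcr1 family, rose in TERT WT/WT mice and Timd2 rose in TERT KO/KO mice (2.09 ± 0.35). Their counts were not checked for reads shared with Havcr1.

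Markers of other cell types moved with the members. Of 12 macrophage and monocyte markers, ADR raised 11 in TERT WT/WT mice and 3 in TERT KO/KO mice, and none was at 0 in any library. Of all genes tested, 15.2% and 3.83% rose. None of the 12 markers was called between genotypes after ADR or for the difference of the ADR effects. Their mean log2(CPM + 0.1) ran from 4.24 to 5.89 in TERT WT/WT ADR kidneys against 2.90 to 3.24 with saline, and was lowest in replicate 1. It was 3.50 and 5.37 in TERT KO/KO ADR replicates 1 and 3, and 6.75, 3.43 and 5.93 in i-TERTci replicates 1, 2 and 3 against 2.87 to 3.47 in their controls. The part of these cells in the members' values was not tested. The macrophage mean was the highest of all 20 libraries in i-TERTci replicate 1. Havcr1 in that kidney was within the control range with TMM factors and above every control without them.

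The kidney's own cell types were also followed. Of 12 proximal tubule markers, ADR lowered 6 in TERT WT/WT mice and raised none, where 12.0% of all genes fell. Among those that fell was Lrp2, the megalin gene (-1.59 ± 0.37, adjusted p = 0.00964, edgeR). The mean over the 12 markers was 8.94, 7.58 and 7.52 in TERT WT/WT ADR replicates 1, 2 and 3, against 9.24 to 9.49 with saline. It was 7.44, 9.33 and 8.98 in i-TERTci replicates 1, 2 and 3, against 9.37 to 9.77 in actin-rtTA+ kidneys. TERT WT/WT ADR replicate 3 was the lowest of its group by a small margin. With TMM factors it was the highest for Clu, Anxa3 and Cp, and replicate 2 for the other 5 genes. Without them, as in the marker means, replicate 3 was also the highest for Havcr1 (754 against 745 CPM) and Anxa2 (235 against 223 CPM). In i-TERTci replicate 1, the lowest of its group, 7 of the 8 genes were at their highest. Havcr1 was at its lowest there with TMM factors, but not without them. In TERT KO/KO mice no proximal tubule marker passed. The means were 8.69 and 8.28 in ADR replicates 1 and 3, below the 9.06 to 9.51 of the saline kidneys. The median log2 difference of these markers was -1.03, against 0.01 over all genes. Of 10 podocyte markers 7 fell in TERT WT/WT mice and 2 in TERT KO/KO mice. Of 10 endothelial markers 5 fell and none rose in TERT WT/WT mice and none passed in TERT KO/KO mice. Endothelium can also make Vcam1 and Icam1, and which cells made them here was not tested. Of 12 markers of hepatocytes and Kupffer cells, liver cells among which hepatocytes make Clu and Cp, only Hp rose in TERT WT/WT mice, out of 8 tested (1.63 ± 0.41, adjusted p = 0.0128, edgeR). Of 10 fibroblast and mesangial markers 6 rose and 1 fell in TERT WT/WT mice and 4 rose in TERT KO/KO mice. Of 12 loop and distal nephron markers 3 fell in mice with TERT and 1 in TERT KO/KO mice, where 12.0% and 1.43% of all genes fell. Of 5 neutrophil markers tested 1 rose in TERT WT/WT mice, and of 9 lymphocyte markers 1 rose there and 1 fell in TERT KO/KO mice. Of all genes 15.2% rose in TERT WT/WT mice, so the single markers that rose there are no result about these cells. In TERT KO/KO mice 1.43% of all genes fell, and nothing is read from the 1 lymphocyte marker that fell. No marker of any of these lists passed in i-TERTci mice, between genotypes after ADR, or for the difference of the ADR effects. The part of these cell types in the members' values was not tested.

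**Figure D5:**
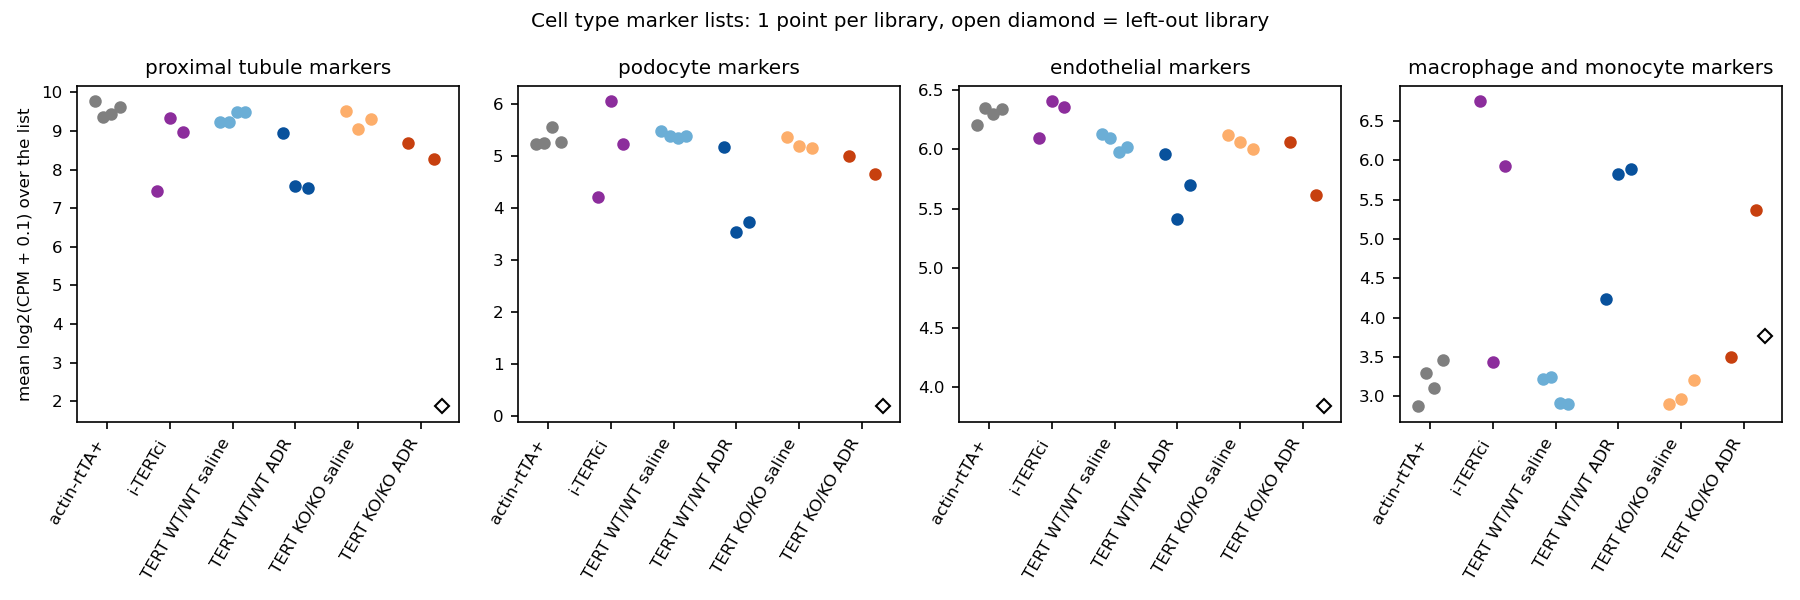
Mean log2(CPM + 0.1) over 4 lists of cell type markers in each kidney, by group, with the library left out as an open diamond. Macrophage values are highest in i-TERTci replicate 1 (6.75), and proximal tubule values are lowest there (7.44) among the 19 libraries used.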

How the data were processed

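Whole-kidney RNA of 20 mice was sequenced, 1 library per mouse. Per the labels and the study's methods, RNA came from RNeasy Micro columns, and reads passed through FastQC and Trimmomatic and were aligned to mm10 with STAR. The counter, annotation, strand setting and versions are not given in the sources used here. The authors deposited raw counts per gene for 55471 identifiers, and 55144 were given symbols from GENCODE while 327 were not. The members and lists were chosen with earlier results of these data known.

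Counts were normalised with TMM factors and tested with edgeR 4.0.16 in R 4.3.3 (quasi-likelihood F test, robust, genes kept by filterByExpr, Benjamini-Hochberg adjusted p under 0.05). The i-TERTci experiment was fitted alone, and the 4 ADR groups in 1 fit that left out TERT KO/KO ADR replicate 2. Another fit, of 19 libraries, compared the 2 effects. Errors are standard errors of the fit and intervals are 95%. The spread is between mice, so p-values measure that spread only. The procedure was also run on simulated counts that gave every gene and mouse the same spread. Those counts do not carry the uneven mice seen here. Alternatives were DESeq2 1.42.0, limma 3.58.1 voom, other factors and filters, a replicate block, and each library left out in turn. The text names all 8 genes, and from each list those with the smallest p. Cell type means use log2(CPM + 0.1) without TMM factors. Promoters are from RefSeq (GRCm38.p6), matched for 5 of the 8 genes. One gene near a member in pattern is not reported here.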

Additional observations from a re-analysis of the deposited data

Results flagged for a closer look

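TERT KO/KO ADR replicate 2, the library kept out of all group means, held 3 of the 8 genes above every TERT KO/KO saline kidney, on CPM without a TMM factor. Vcam1 stood at 23.74, Clu at 1522 and Cp at 2239. The other 5 were low there, with Havcr1 at 2.45, Spp1 at 59.9, Anxa2 at 6.48, Anxa3 at 2.55 and Icam1 at 15.2. Albumin took 26.1% of the counts of that library, whose proximal tubule markers averaged 1.87 on the log2(CPM + 0.1) scale, and the part of other tissue in these values was not tested. No kidney in the groups of 4 was far from the other 3 for any of the 8 genes.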

How the results depend on the processing

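For i-TERTci, DESeq2 called 7 of the 8 genes and limma voom 8, and leaving out 1 library gave 0 to 7, the 7 without i-TERTci replicate 2. For ADR in TERT WT/WT mice, 4 were called with TERT KO/KO ADR replicate 2 kept, and 7 to 8 leaving out 1 library. For ADR in TERT KO/KO mice, 1 was called with no filter, 8 with DESeq2, 0 with that library kept, 8 with only the 2 compared groups and 0 to 8 leaving out 1 library. Leaving out 1 library gave 0 to 2 between genotypes after ADR and 0 to 1 for the difference of the ADR effects. For the i-TERTci effect against the ADR effect limma voom called 1. The cause was not tested.

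Some differences changed sign, and not all of them were small. Between genotypes in saline these were Anxa2 (-0.002) and Cp (0.011) with the replicate block. After ADR, Clu (from -1.105 to 0.14) and Cp (from -0.838 to 1.94) did so with TERT KO/KO ADR replicate 2 kept. For the difference of the ADR effects, Havcr1 was -0.26 with limma voom, -0.17 with the block and -0.38 with that library kept, when Clu was 0.27 and Cp 2.02. Leaving out 1 library gave -0.015 to 0.145 for Spp1, -0.197 to 0.021 for Cp and -0.036 to 0.104 for Icam1 in saline, -1.26 to 0.44 for Havcr1 and -0.75 to 0.078 for Anxa3 after ADR, -0.885 to 0.81 for Havcr1, -2.21 to 0.17 for Vcam1 and -0.65 to 0.18 for Anxa3 in the difference of the ADR effects, and -1.21 to 0.032 for Vcam1 and -0.69 to 0.24 for Anxa2 in the i-TERTci effect against the ADR effect.

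Counts over all genes moved more. For i-TERTci the 1 gene became 0 to 4325 leaving out 1 library, 0 with median-ratio factors, 0 with a filter at a mean of 1 CPM, 23 with no filter, 1934 with DESeq2 and 6048 with limma voom. For ADR in TERT WT/WT mice 5164 genes became 894 with TERT KO/KO ADR replicate 2 kept, 9244 with limma voom and 1708 to 7810 leaving out 1 library. For ADR in TERT KO/KO mice 1001 became 2196 with DESeq2, 1556 with limma voom, 295 with that library kept, 1710 with only the 2 compared groups and 177 to 3393 leaving out 1 library.

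Between genotypes in saline 1 gene became 2266 with limma voom, 22 with DESeq2, 6 with no filter and 0 to 2 leaving out 1 library. After ADR 14 became 138 with DESeq2, 41 with no filter, 4 with limma voom, 1 with the block, 0 with that library kept, 0 with only the 2 compared groups and 0 to 782 leaving out 1 library. For the difference of the ADR effects 0 became 138 with DESeq2, 23 with no filter, 15 with limma voom and 0 to 325 leaving out 1 library. For the i-TERTci effect against the ADR effect 1 became 2105 with limma voom, 60 with DESeq2, 4 with no filter, 0 with the block, 0 with that library kept and 0 to 35 leaving out 1 library.

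The correlations of same-numbered mice's deviations ran from -0.37 to 0.40. Those of the ADR kidneys of the 2 genotypes were 0.40 for replicate 1 and 0.28 for replicate 3, but other pairs were near or below 0 and nothing in the labels ties the numbers to a shared litter or day, so the mice were not treated as paired. With the replicate block 0 members were called for i-TERTci, 8 for ADR with TERT and 4 without TERT, where Anxa2 was lost (adjusted p = 0.0689, edgeR). CPM without TMM factors moved the mean of Vcam1 (10.5), Clu (244), Anxa2 (50.5) and Anxa3 (9.41) in TERT KO/KO saline and of Clu (851) in TERT KO/KO ADR mice by more than 1 SD. They also changed the order of the i-TERTci kidneys for Havcr1. Replicate 1 (197.2) then lay above every actin-rtTA+ kidney (at most 184.9), and replicate 2 (183.8) was the lowest of its group. In i-TERTci replicate 2, Anxa2 and Anxa3 then lay inside the control range and Spp1 below every control. Depth was not varied, and its part in these limits was not tested.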
